A study of Mus musculus with 30 samples.

Results

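Teneurins, latrophilins and FLRT proteins are a group of neuronal surface proteins that bind one another, and their transcripts were followed here in mouse cortex with and without the transcription factor Tbr1. The 10 members were Tenm1, Tenm2, Tenm3 and Tenm4 (teneurins), Adgrl1, Adgrl2 and Adgrl3 (latrophilins) and Flrt1, Flrt2 and Flrt3. They were listed by name, and all 10 were measured at both stages, out of 16553 genes with a usable probe set in both tables. The probe set that stands for a gene was chosen by measured values, as the one with the highest mean signal over the arrays of its stage. Mice were of the CD1 strain and carried either a homozygous null mutation of Tbr1 in the whole animal (KO, Tbr1 -/-), bred from heterozygous parents, or were wild type (WT). RNA came from E14.5 neocortex of 3 KO and 3 WT samples, and from frontal, parietal and occipital brain tissue at P0.5, with 4 KO and 4 WT samples for each region. The labels do not say whether the samples of a group came from separate animals, so the p-values measure only the spread between these samples, which may be technical.

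Teneurins are large transmembrane proteins that sit on axons and dendrites and bind both to teneurins on other cells and to latrophilins. Latrophilins are adhesion G protein-coupled receptors, found mainly at synapses, and FLRT proteins are transmembrane proteins with leucine-rich repeats that bind latrophilins and the netrin receptors of the Unc5 family. In the developing brain these contacts act in cell migration, in matching axons to their target cells and in the formation of synapses. Teneurin-3 and latrophilin-2 are known for guiding axons to their targets in the hippocampus, and FLRT proteins for the migration of cortical neurons. Tbr1 is a T-box factor of early-born cortical neurons, above all those of layer 6 and the subplate.

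The log2 signal of Tbr1 was lower in KO than in WT tissue in frontal (by 0.63 ± 0.12, SE), parietal (0.58 ± 0.12) and occipital tissue (0.84 ± 0.12), with no overlap of KO and WT arrays within a region. Whether its probes lie in the deleted part is not known. At E14.5 the KO sample 1 stood at 8.69, near the WT samples (8.89 to 9.36). The labels give no sex. The mean log2 signal of 3 Y-linked genes was low in all 4 KO frontal arrays (5.09 to 5.99) and high in all 4 WT frontal arrays (8.99 to 9.15), so in this comparison genotype and Y-linked level cannot be told apart within frontal tissue. It was high in 4 of 4 WT occipital, 3 of 4 KO occipital, 3 of 4 WT parietal and 2 of 4 KO parietal arrays. Of the 16 P0.5 arrays with a high Y-linked level, 5 also had a log2 signal of Xist, a gene expressed from the inactive X chromosome, between 7.75 and 8.77 (2 KO parietal, 2 KO occipital and 1 WT parietal array), while the other 11 lay at 5.43 to 6.39 and the 8 arrays of low level at 11.96 to 12.38. Arrays of like Y-linked level were thus not all alike in Xist, and the labels do not say whether an array holds tissue of more than 1 animal. A fit across the 24 P0.5 arrays that takes the Y-linked level as a covariate lowered the count of genes called in frontal tissue from 1499 to 247. Of the members' calls it ended that of Tenm3 in KO against WT parietal tissue and that of Tenm2 between WT parietal and occipital tissue. WT frontal sample 4 and KO parietal sample 2 correlated least with their own groups (mean r of 0.985 and 0.988 over genes), and leaving out both ended no call of a member. In bulk tissue, fewer cells of a type and less RNA per cell cannot be told apart.

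Members were called at a limma adjusted p under 0.05, with Benjamini-Hochberg adjustment over all genes of a comparison. In KO against WT frontal tissue 2 of 10 members were called, both higher (Tenm3 and Flrt3), where 7.52% of all 19938 genes were called and 4.7% were called higher. In parietal tissue 3 of 10 were called, all higher (Tenm2, Tenm3 and Flrt3), against 1.81% of all genes (1.06% higher). In occipital tissue Flrt3 alone was called, higher in KO, against 1.34% of genes (0.762% higher). With the 3 regions averaged, 4 of 10 rose (Tenm2, Tenm3, Tenm4 and Flrt3) against 7.46% of genes (4.71% higher). No member was called lower in KO tissue in any of these 4 comparisons, and 5 of the 10 had differences below 0 over the regions. The members' median difference over the regions was 0.08, beside -0.01 for all genes. With Y-linked level as a covariate, the calls over regions held for Flrt3 (0.79, adjusted p = 6.66e-07), Tenm3 (0.36, adjusted p = 0.007), Tenm2 (0.32, adjusted p = 0.022) and Tenm4 (0.25, adjusted p = 0.0244).

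Regions of WT tissue also differed. Between frontal and occipital tissue 4 of 10 members were called, against 6.03% of all genes (2.26% higher and 3.77% lower in frontal tissue). Tenm2, Tenm3 and Flrt3 were lower in frontal tissue and Adgrl2 was higher. The same 4 members were called in the same directions between parietal and occipital tissue, where 0.451% of genes passed (0.256% higher and 0.196% lower in parietal tissue). Tenm3 alone was called between frontal and parietal tissue, lower in frontal tissue, where 0.171% of genes were called and 0.11% lower. In KO tissue 3 of 10 were called between frontal and occipital tissue (Tenm2, Tenm3 and Flrt3, all lower in frontal tissue) against 3.22% of genes (1.76% lower). Tenm2 alone was called between KO frontal and parietal tissue, again lower in frontal tissue, against 0.236% of genes (0.145% lower), and no member was called between KO parietal and occipital tissue, where 0.351% of genes were. The counts behind most of these shares moved by over 1.5 times when 1 array was left out, and their ranges are given with the alternatives. The comparisons of a region share its arrays, so their values are given side by side and not as separate evidence.

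**Figure D1:**
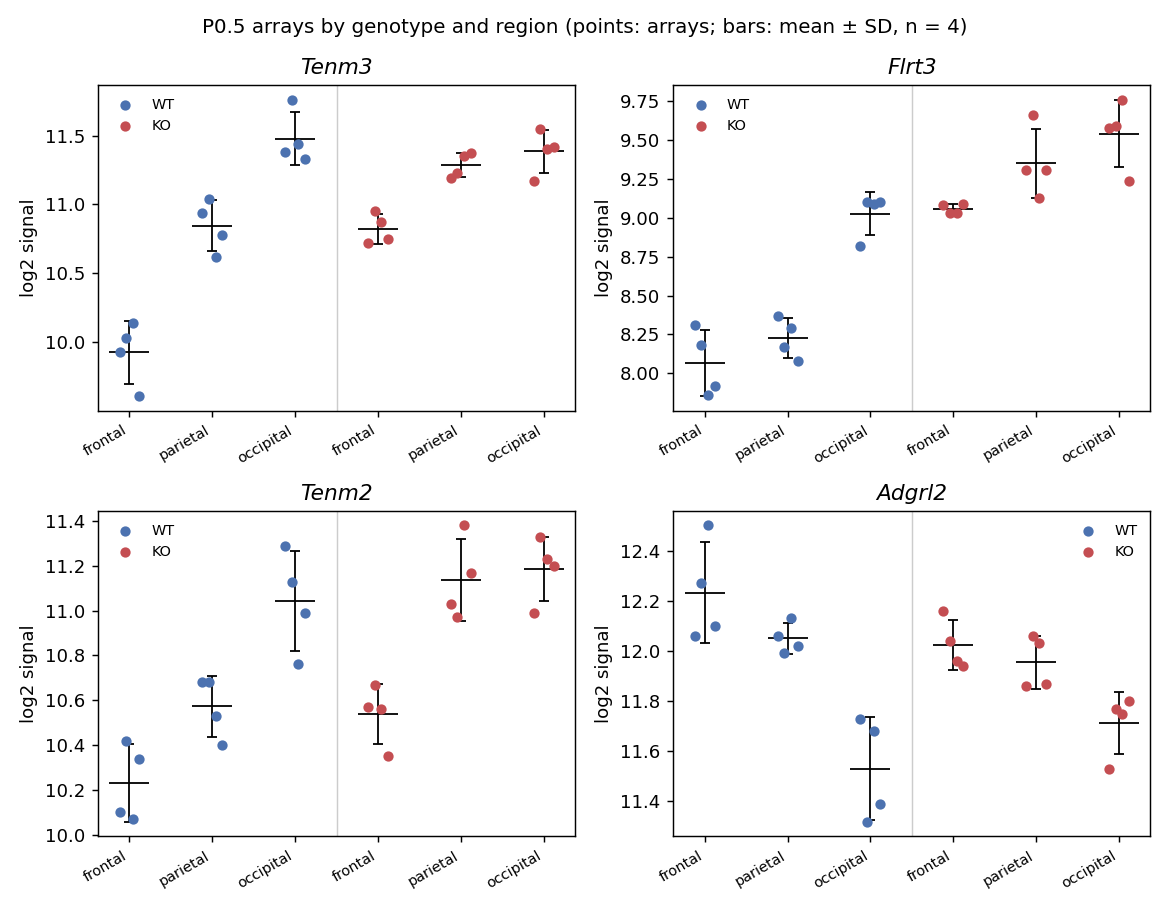
Log2 signal (vertical axes, each with its own range) of Tenm3, Flrt3, Tenm2 and Adgrl2 in the P0.5 arrays of each region, WT in blue and KO in red; points are arrays and bars are the mean ± SD (n = 4). Tenm3, Flrt3 and Tenm2 climb from frontal to occipital tissue in WT and Adgrl2 descends, while the 4 KO frontal arrays of Tenm3 (10.72 to 10.95) and Flrt3 (9.03 to 9.09) lie above all 4 WT frontal arrays.

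Tenm3 encodes the teneurin that is known for matching axons to targets in the hippocampus and the visual system, and it had the largest regional difference of the members. In WT frontal tissue its log2 signal was 9.93, 10.03, 10.14 and 9.61. In WT parietal tissue it was 10.94, 11.04, 10.62 and 10.78, and in WT occipital tissue 11.38, 11.76, 11.44 and 11.33. All 4 frontal arrays lay below all parietal arrays, and all parietal arrays below all occipital arrays. The frontal level was 2.92-fold below the occipital level (difference of -1.55 ± 0.11, SE, adjusted p = 8.11e-10). Frontal against parietal tissue gave -0.92 ± 0.11 (adjusted p = 0.000108) and parietal against occipital tissue -0.63 ± 0.11 (adjusted p = 0.00308).

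In KO tissue the slope of Tenm3 was shallower. Its log2 signal was 10.72, 10.95, 10.87 and 10.75 in frontal, 11.19, 11.23, 11.35 and 11.37 in parietal and 11.17, 11.55, 11.40 and 11.42 in occipital tissue. The 4 frontal arrays again lay below all arrays of the other regions, but the parietal and occipital arrays overlapped. KO frontal tissue was 1.48-fold below KO occipital tissue (-0.56 ± 0.11, adjusted p = 0.0021), while the frontal to parietal difference of -0.46 ± 0.11 was not called (adjusted p = 0.0713) and parietal against occipital tissue gave -0.10 ± 0.11 (adjusted p = 0.916). With the replicate number as a block the frontal to parietal difference was called (adjusted p = 0.0306), although these numbers were not found to pair the arrays.

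Set against WT tissue of the same region, Tenm3 was 1.86-fold higher in KO frontal tissue (0.89 ± 0.11, adjusted p = 3.57e-06) and 1.36-fold higher in KO parietal tissue (0.44 ± 0.11, adjusted p = 0.0258), with no overlap of the arrays in either region. In occipital tissue the difference was -0.09 (95% interval -0.31 to 0.13, adjusted p = 0.813), and the arrays overlapped. The interaction contrast, which tests whether the frontal to occipital difference was the same in both genotypes, gave 0.98 ± 0.15 (95% interval 0.67 to 1.30, adjusted p = 0.00162). Tenm3 was the 1 member called in it, where 0.416% of all genes were called and 0.236% above 0, and it stayed called with each of the 16 arrays left out (0.88 to 1.05). The order of group means ran from WT frontal (9.93 ± 0.23, SD, n = 4) through KO frontal (10.82 ± 0.11), WT parietal (10.85 ± 0.18), KO parietal (11.29 ± 0.09) and KO occipital (11.39 ± 0.16) to WT occipital tissue (11.48 ± 0.19). KO frontal and WT parietal tissue, and the last 3 groups, overlapped with their neighbours in that order.

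Taking Y-linked level as a covariate, the frontal difference of Tenm3 was 0.79 ± 0.15 (adjusted p = 0.00363) and the interaction 0.91 ± 0.17 (adjusted p = 0.023). Both use the frontal arrays, within which this level and genotype cannot be told apart. The KO frontal to occipital difference was -0.65 ± 0.13 there (adjusted p = 0.0106). The parietal call was lost in that fit (0.41 ± 0.11, adjusted p = 0.0642). Within parietal arrays of high Y-linked level the KO minus WT difference was 0.48 (2 KO, 3 WT), and within those of low level 0.27 (2 KO, 1 WT), although both KO arrays of high level and 1 of the 3 WT arrays also had Xist signal. In a fit of only the parietal arrays with the replicate number as a block its adjusted p was 0.0526. The parietal call was also lost without KO parietal sample 3 (0.42, adjusted p = 0.0728) or sample 4 (0.41, adjusted p = 0.102), and without WT parietal sample 3 (0.37, adjusted p = 0.14) or sample 4 (0.42, adjusted p = 0.0887).

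Flrt3 encodes a ligand of latrophilins and of Unc5 receptors that acts in axon guidance and in the spacing of migrating cortical neurons. Its log2 signal was 8.31, 8.18, 7.86 and 7.92 in WT frontal, 8.37, 8.17, 8.29 and 8.08 in WT parietal and 8.82, 9.10, 9.09 and 9.10 in WT occipital tissue. Frontal and parietal arrays overlapped, and both lay below all occipital arrays. WT frontal tissue was 1.95-fold below occipital tissue (-0.96 ± 0.11, SE, adjusted p = 5.45e-06) and WT parietal tissue 1.74-fold below it (-0.80 ± 0.11, adjusted p = 0.000595), while frontal against parietal tissue gave -0.16 ± 0.11 (adjusted p = 0.51). The WT parietal arrays of Flrt3 thus lay with the frontal arrays, while those of Tenm3 lay between both other regions.

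In KO tissue Flrt3 stood at 9.08, 9.03, 9.03 and 9.09 in frontal, 9.31, 9.66, 9.13 and 9.31 in parietal and 9.58, 9.59, 9.76 and 9.24 in occipital tissue. No KO array overlapped with the WT arrays of its region, and the lowest of the 12 KO arrays (9.03) was above all 8 WT frontal and parietal arrays (at most 8.37). Flrt3 rose 1.99-fold in KO frontal tissue (0.99 ± 0.11, adjusted p = 1.77e-06), 2.18-fold in parietal tissue (1.13 ± 0.11, adjusted p = 9.27e-07) and 1.43-fold in occipital tissue (0.52 ± 0.11, adjusted p = 0.0139). Averaged over the regions the rise was 0.88 ± 0.05 (adjusted p = 2.93e-07).

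Within KO tissue the frontal level of Flrt3 was 1.40-fold below the occipital level (-0.49 ± 0.11, adjusted p = 0.0128), with no overlap. Frontal against parietal tissue (-0.29 ± 0.11, adjusted p = 0.433) and parietal against occipital tissue (-0.19 ± 0.11, adjusted p = 0.816) were not called. No member was called in the interactions of frontal against parietal and of parietal against occipital tissue, where 0.01% of all genes were called in each. The interaction for frontal against occipital tissue was 0.47 (95% interval 0.15 to 0.80, adjusted p = 0.155) and that for parietal against occipital tissue 0.61 (0.28 to 0.94, adjusted p = 0.463), so the test did not call a difference between the genotypes' slopes of Flrt3. The group means ran from WT frontal (8.07 ± 0.21, SD, n = 4), WT parietal (8.23 ± 0.13), WT occipital (9.03 ± 0.14) and KO frontal (9.06 ± 0.03) to KO parietal (9.35 ± 0.22) and KO occipital tissue (9.54 ± 0.22). In that order WT frontal and parietal arrays overlapped, as did WT occipital with KO frontal, and KO parietal with KO occipital arrays.

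Taking Y-linked level as a covariate, Flrt3 kept its calls in frontal (0.83 ± 0.15, adjusted p = 0.00327), parietal (1.08 ± 0.11, adjusted p = 3.48e-06) and occipital tissue (0.47 ± 0.11, adjusted p = 0.0327). For frontal tissue, where this level followed genotype in every array, the fit cannot tell level and genotype apart. Within arrays of high Y-linked level the KO minus WT difference was 0.97 in parietal tissue (2 KO, 3 WT) and 0.44 in occipital tissue (3 KO, 4 WT), and within those of low level it was 1.32 in parietal tissue (2 KO, 1 WT). In the same fit the KO frontal to occipital difference of Flrt3 was -0.62 ± 0.14 (adjusted p = 0.0176). The occipital call was lost without KO occipital sample 3 (0.44, adjusted p = 0.0904) and without WT occipital sample 1 (0.45, adjusted p = 0.0501). The KO frontal to occipital call was lost without KO occipital sample 3 (-0.41, adjusted p = 0.0637).

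**Figure D2:**
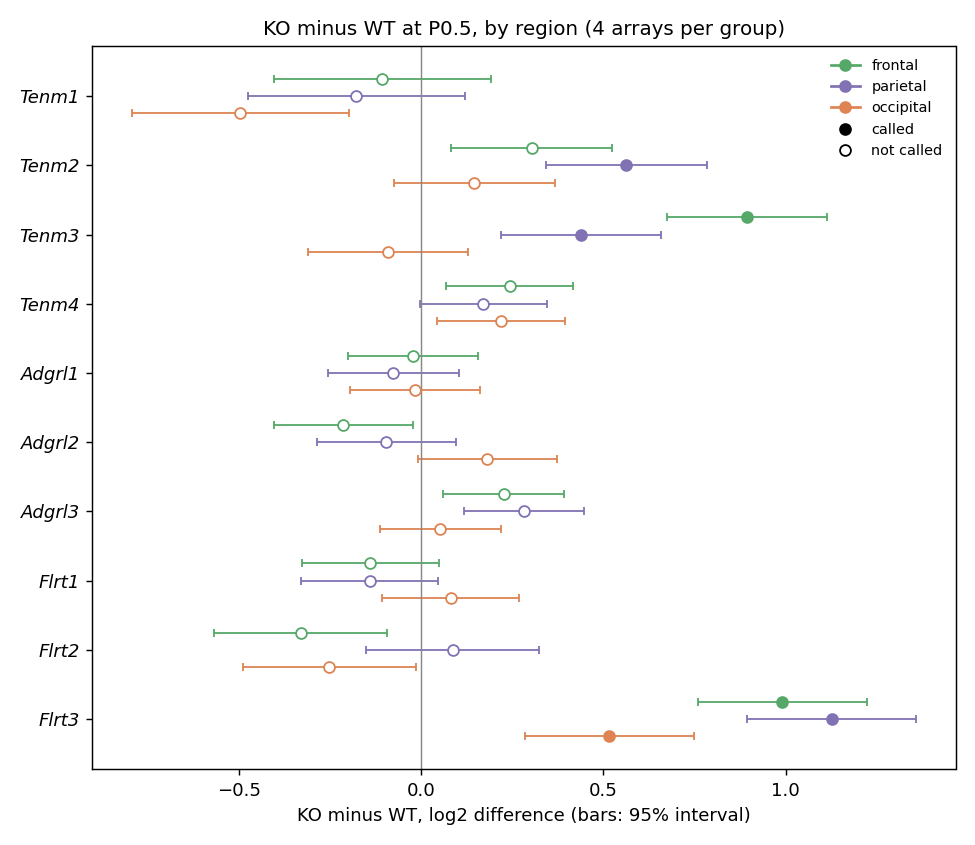
KO minus WT differences of the 10 members on the log2 scale (horizontal axis) in frontal, parietal and occipital tissue at P0.5, with 95% intervals from limma (4 arrays per group); filled points are called and open points are not. Flrt3 lies right of 0 in all 3 regions (0.52 to 1.13), and Tenm3 moves from 0.89 in frontal to -0.09 in occipital tissue.

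Tenm3 and Flrt3 had the largest called differences between genotypes, so the sequence around their start sites is shown. Beside it is 1 of the windows of Adgrl3, the 1 member with the core T-box motif in any window. Each window runs from 250 bases before to 50 bases after an annotated start of the gene (RefSeq, GRCm38.p6), 5′ to 3′ along the gene's strand. The T-box core searched was GTGTGA, on both strands (TCACAC on the other), with any match in capitals. The Tenm3 window is chr8:48674641-48674940 on the minus strand, the Flrt3 window chr2:140671427-140671726 on the minus strand and the Adgrl3 window chr5:81021343-81021642 on the plus strand.
Tenm3: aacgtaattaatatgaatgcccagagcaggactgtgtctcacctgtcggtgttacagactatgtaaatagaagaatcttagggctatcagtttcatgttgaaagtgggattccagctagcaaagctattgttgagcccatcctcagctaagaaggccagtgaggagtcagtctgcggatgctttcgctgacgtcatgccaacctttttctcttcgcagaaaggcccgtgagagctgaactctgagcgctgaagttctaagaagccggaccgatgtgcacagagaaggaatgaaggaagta
Flrt3: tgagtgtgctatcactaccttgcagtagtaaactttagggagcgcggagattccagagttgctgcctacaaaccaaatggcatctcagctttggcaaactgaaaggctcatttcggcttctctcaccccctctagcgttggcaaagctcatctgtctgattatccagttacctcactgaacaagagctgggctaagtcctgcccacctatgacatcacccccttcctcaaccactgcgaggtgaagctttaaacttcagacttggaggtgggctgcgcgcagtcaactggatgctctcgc
Adgrl3: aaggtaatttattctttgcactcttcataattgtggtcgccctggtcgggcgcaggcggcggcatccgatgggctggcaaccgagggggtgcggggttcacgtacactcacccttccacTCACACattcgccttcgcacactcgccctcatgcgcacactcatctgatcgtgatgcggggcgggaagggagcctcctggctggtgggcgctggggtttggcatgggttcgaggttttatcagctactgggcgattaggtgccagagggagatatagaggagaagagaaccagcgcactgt
Of the 10 members, 9 had a window in the set of start sites used, and none was given for Flrt1. Of their 12 windows 1 held the core, beside 4760 of all 32851 windows. In the Adgrl3 window shown its first base is at -131 from the start, as TCACAC. The other windows of Adgrl3 (chr5:81020321-81020620 and chr5:81020502-81020801) did not hold the core. Adgrl3 had more windows than any other member. The longer form AGGTGTGA, which contains the core, was in 0 of the 12 windows and in 1.28% of all windows. A match is a description of these letters, and its absence says only that they are not in these windows.

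Tenm2 encodes the teneurin first described as a high-affinity partner of latrophilin-1. Its log2 signal was 10.10, 10.42, 10.07 and 10.34 in WT frontal, 10.68, 10.68, 10.53 and 10.40 in WT parietal and 11.29, 11.13, 10.76 and 10.99 in WT occipital tissue. The WT occipital arrays lay above all other WT arrays, and WT frontal and parietal arrays overlapped by a narrow margin. WT frontal tissue was 1.75-fold below occipital tissue (-0.81 ± 0.11, SE, adjusted p = 2.84e-05). Parietal against occipital tissue gave -0.47 ± 0.11 (adjusted p = 0.0438), and frontal against parietal tissue -0.34 ± 0.11 (adjusted p = 0.246). In the WT parietal to occipital comparison all 4 same-numbered pairs of arrays correlated over 0.1, and with the replicate number as a block the adjusted p was 0.0517, which lost the call. It was lost as well with Y-linked level as a covariate (adjusted p = 0.0621), without the intensity trend (0.0675) and with the compared arrays fitted alone (0.0717). Of 8 alternatives 4 lost the call and 4 kept it, with an adjusted p of 0.0106 at the lowest. That call was also lost with 7 of the 8 arrays left out in turn, among them WT parietal sample 4 (-0.41, adjusted p = 0.187), and kept without WT occipital sample 3 (-0.56, adjusted p = 0.00929).

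In KO tissue Tenm2 stood at 10.57, 10.67, 10.56 and 10.35 in frontal, 11.03, 10.97, 11.38 and 11.17 in parietal and 10.99, 11.33, 11.23 and 11.20 in occipital tissue. KO parietal arrays lay with the occipital arrays and above all frontal arrays. KO parietal tissue was 1.48-fold above WT parietal tissue (0.56 ± 0.11, adjusted p = 0.00283), with no overlap. Frontal tissue gave 0.30 ± 0.11 (adjusted p = 0.0796) and occipital tissue 0.15 ± 0.11 (adjusted p = 0.678), with overlapping arrays in both. Taking Y-linked level as a covariate, the parietal difference was 0.55 ± 0.11 (adjusted p = 0.00772), and it was 0.67 within arrays of high Y-linked level (2 KO, 3 WT) and 0.385 within those of low level (2 KO, 1 WT).

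Within KO tissue Tenm2 was 1.57-fold lower in frontal than in occipital tissue (-0.65 ± 0.11, adjusted p = 0.000501) and 1.51-fold lower in frontal than in parietal tissue (-0.60 ± 0.11, adjusted p = 0.0121). The frontal to parietal call was lost without KO frontal sample 3 (adjusted p = 0.0566) or sample 4 (adjusted p = 0.0751), and without KO parietal sample 3 (adjusted p = 0.0631) or sample 4 (adjusted p = 0.0648). With Y-linked level as a covariate these differences were -0.68 (adjusted p = 0.00934) and -0.61 (adjusted p = 0.0305). In a fit of only the compared arrays with the replicate block the frontal to parietal call was lost (adjusted p = 0.0778). The interaction for frontal against occipital tissue was 0.16 (95% interval -0.16 to 0.47, adjusted p = 0.54), and that for parietal against occipital tissue 0.42 (0.10 to 0.73, adjusted p = 1). A change of the slope of Tenm2 with genotype was thus not called.

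Tenm4 encodes a teneurin that is also needed for oligodendrocyte maturation. Its log2 signal was 9.67, 9.53, 9.63 and 9.55 in WT frontal and 9.89, 9.84, 9.84 and 9.78 in KO frontal tissue, which did not overlap. The frontal difference of 0.24 ± 0.08 was nevertheless not called (adjusted p = 0.0749), nor were those in parietal (0.17 ± 0.08, adjusted p = 0.554) and occipital tissue (0.22 ± 0.08, adjusted p = 0.289). Averaged over the regions Tenm4 rose 1.16-fold in KO tissue (0.21 ± 0.05, adjusted p = 0.0169). That call was lost without the 3 arrays of KO number 1 (0.21, adjusted p = 0.0541) or KO number 3 (0.18, adjusted p = 0.0574). The Y-linked level differed between regions within each KO number, so a number does not stand for 1 animal.

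The size of the Tenm4 differences depended on the probe set. Tenm4 had 2 at P0.5, and the dimmer one gave 0.57 for KO against WT frontal tissue and -0.61 for WT frontal against occipital tissue, where the one used gave 0.24 and -0.20. With the mean of both, Tenm4 was called in KO against WT frontal tissue (0.41, adjusted p = 0.000909) and in WT frontal against occipital tissue (-0.41, adjusted p = 0.00168). The 2 probe sets had the same direction in these comparisons and in the KO minus WT differences of all 3 regions.

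Tenm1, the teneurin gene on the X chromosome, was not called in any comparison. In occipital tissue its log2 signal was 8.87, 9.55, 9.83 and 9.50 in WT and 9.07, 9.02, 8.86 and 8.82 in KO samples. WT sample 1 lay among the KO samples and the other WT samples above them. The difference was -0.50 ± 0.15 (adjusted p = 0.0999), and without WT occipital sample 1 it was -0.69 (adjusted p = 0.00213). In frontal tissue the difference was -0.11 ± 0.15 and in parietal tissue -0.18 ± 0.15. Within occipital arrays of high Y-linked level it was -0.47 (3 KO, 4 WT). WT frontal against occipital tissue gave -0.38 ± 0.15 (adjusted p = 0.101), and it was called without WT occipital sample 1 (-0.57, adjusted p = 0.00591) and in a fit of only the compared arrays with the replicate block (adjusted p = 0.0483).

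The other FLRT genes were not called in any comparison. Flrt2, whose product is a repulsive cue for neurons with the Unc5d receptor, stood at 10.57, 10.38, 9.77 and 10.17 in WT frontal and at 9.81, 10.06, 9.87 and 9.83 in KO frontal tissue. The groups overlapped through WT sample 3. The frontal difference was -0.33 ± 0.12 (adjusted p = 0.0749), and it was called without WT frontal sample 3 (-0.48, adjusted p = 0.0035) or KO frontal sample 2 (-0.39, adjusted p = 0.0453). In occipital tissue the WT arrays (10.06 to 10.47) lay above all KO arrays (9.98 to 10.01), with a difference of -0.25 ± 0.12 that was not called (adjusted p = 0.421). Flrt1 had no call in any of the 13 P0.5 comparisons, and its KO minus WT differences were -0.14 ± 0.09 in frontal, -0.14 ± 0.09 in parietal and 0.08 ± 0.09 in occipital tissue.

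Among the latrophilins, Adgrl2 had a slope opposite to that of Tenm3, Tenm2 and Flrt3. Its log2 signal was 12.06, 12.27, 12.50 and 12.10 in WT frontal, 12.06, 11.99, 12.13 and 12.02 in WT parietal and 11.73, 11.32, 11.68 and 11.39 in WT occipital tissue. All WT frontal and parietal arrays lay above all occipital arrays. WT frontal tissue was 1.63-fold above occipital tissue (0.70 ± 0.09, SE, adjusted p = 2.47e-05) and WT parietal tissue 1.43-fold above it (0.51 ± 0.09, adjusted p = 0.00591), while frontal against parietal tissue gave 0.19 ± 0.09 (adjusted p = 0.389).

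In KO tissue Adgrl2 stood at 12.16, 12.04, 11.96 and 11.94 in frontal, 11.86, 12.06, 12.03 and 11.87 in parietal and 11.53, 11.77, 11.75 and 11.80 in occipital tissue. The KO frontal arrays also lay above all KO occipital arrays, but the difference of 0.31 ± 0.09 was not called (adjusted p = 0.0674). It was called with the mean of the gene's probe sets (0.43, adjusted p = 0.0122) and in a fit of only the 8 arrays compared (0.31, adjusted p = 0.0221), while taking Y-linked level as a covariate gave 0.29 (adjusted p = 0.371). The interaction was -0.40 (95% interval -0.66 to -0.13, adjusted p = 0.152), so a smaller slope in KO tissue was not called. KO against WT tissue gave -0.21 ± 0.09 in frontal (adjusted p = 0.141), -0.09 ± 0.09 in parietal and 0.18 ± 0.09 in occipital tissue (adjusted p = 0.492).

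Adgrl2 had 8 probe sets at P0.5, and they agreed in direction in all 9 comparisons of 2 groups. WT frontal minus occipital differences ran from 0.70 to 0.96 over the 8 and KO frontal minus occipital differences from 0.31 to 0.67. In each of these comparisons all 8 had no overlap between the regions. The probe set with the highest mean, which is the one used above, gave the smallest difference in both.

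**Figure D3:**
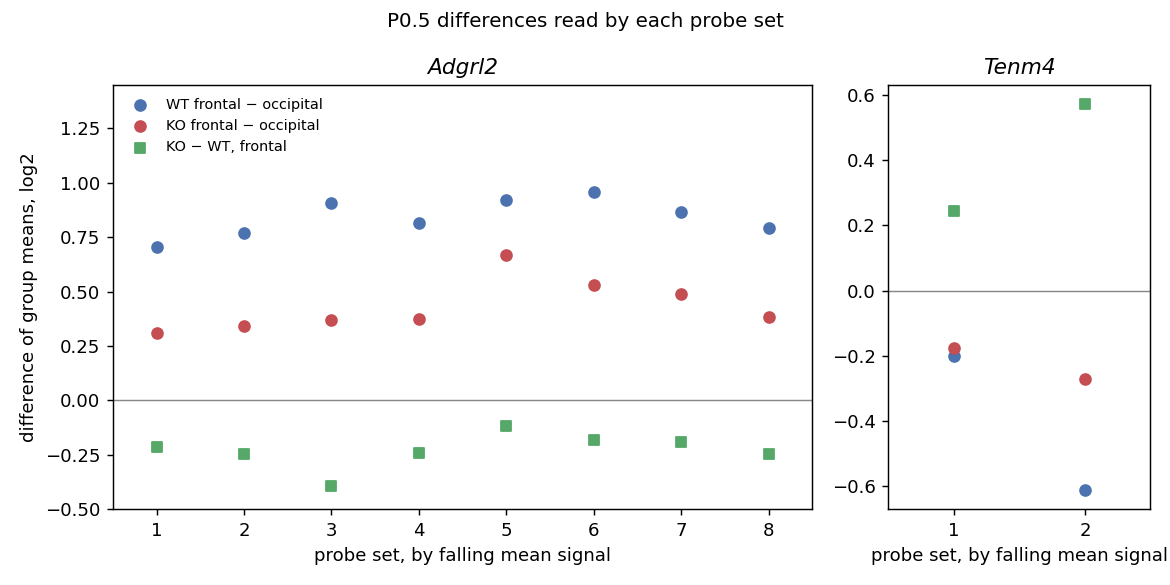
Differences of group means on the log2 scale (vertical axes, each with its own range) for the 8 probe sets of Adgrl2 and the 2 of Tenm4 at P0.5, ordered by falling mean signal, with number 1 the one used elsewhere. For Adgrl2 all 8 lie above 0 for frontal minus occipital tissue in WT (0.70 to 0.96) and KO (0.31 to 0.67), and the second Tenm4 probe set gives a KO minus WT difference of 0.57 in frontal tissue against 0.24 for the first.

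Adgrl3, a latrophilin that binds FLRT3 and teneurins, was not called in any comparison. In parietal tissue its log2 signal was 10.62, 10.65, 10.47 and 10.41 in WT and 10.75, 10.83, 10.73 and 10.98 in KO samples. These groups did not overlap, and the difference was 0.28 ± 0.08 (adjusted p = 0.0702). In frontal tissue it was 0.23 ± 0.08 (adjusted p = 0.0784), and without WT frontal sample 2, the highest of its group at 10.79, it was 0.32 (adjusted p = 0.00825). Over the regions Adgrl3 gave 0.19 ± 0.06 (adjusted p = 0.0635). It was called in the fit of 24 arrays with the regional contrasts averaged (0.19, adjusted p = 0.00795), which counts regions as separate values. In that same fit it was also called without the pair of arrays least like their groups (0.17, adjusted p = 0.0178). There it was not called with Y-linked level as a covariate (0.14, adjusted p = 0.264). In the test of averages, which joins arrays by number only, it was called without the 3 arrays of WT number 2 (0.24, adjusted p = 0.00678). Adgrl1, which encodes the founding member of the latrophilins, differed by -0.08 to -0.02 between KO and WT tissue in the 3 regions, with 95% intervals from -0.25 to 0.16, and by 0.14 ± 0.09 between frontal and occipital tissue in both genotypes.

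**Figure D4:**
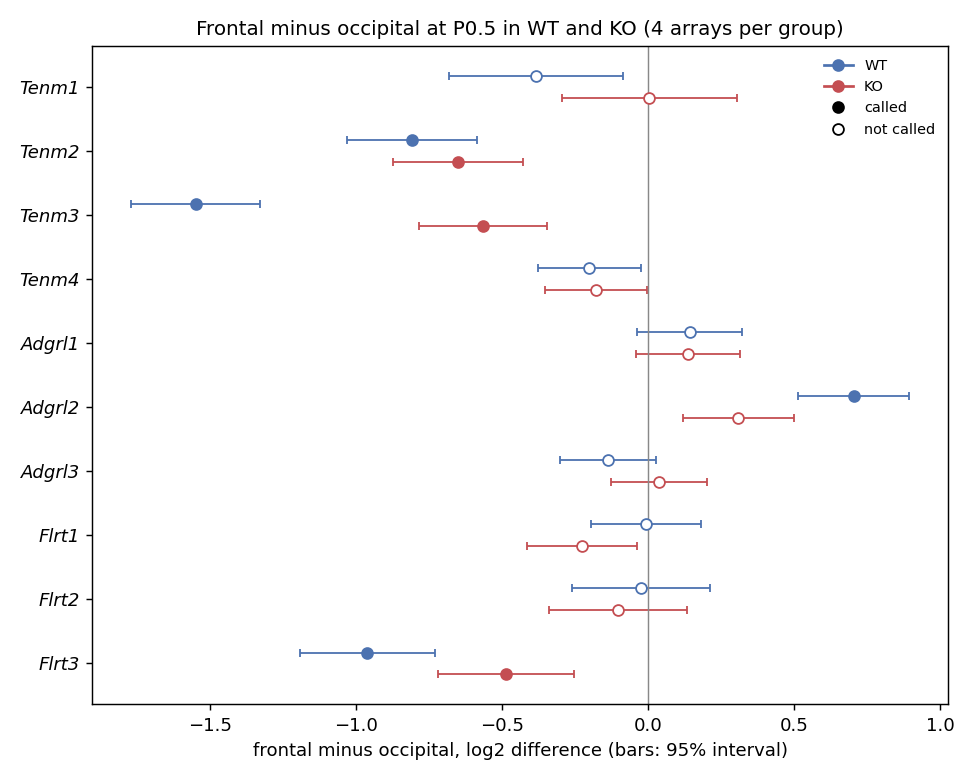
Frontal minus occipital differences of the 10 members on the log2 scale (horizontal axis) in WT and KO tissue at P0.5, with 95% intervals from limma (4 arrays per group); filled points are called and open points are not. The interval of Tenm3 in KO (-0.78 to -0.34) lies apart from that in WT (-1.77 to -1.33), and the KO values of Flrt3 (-0.49) and Adgrl2 (0.31) lie nearer 0 than the WT values (-0.96 and 0.70).

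Markers of other cell types also differed between the groups. In KO against WT frontal tissue 5 of 7 astrocyte markers were called higher, with a log2 summed signal of 11.83 to 12.71 in KO and 11.27 to 12.41 in WT arrays, and 2 of 6 microglia markers (10.41 to 10.79 against 9.90 to 10.60). Also higher were 1 of 7 radial glia, 1 of 6 oligodendrocyte lineage and 1 of 4 thalamic markers. Lower were 1 of 7 blood vessel and 1 of 5 projection neuron markers. Of 6 striatal markers 1 was higher and 2 were lower. In parietal tissue, where Tenm2, Tenm3 and Flrt3 rose, 0 of 7 astrocyte markers (12.44 to 12.68 in KO against 12.07 to 12.26) and 0 of 6 microglia markers (10.27 to 10.45 against 10.08 to 10.30) were called. There 1 of 7 radial glia markers (12.94 to 13.33 against 13.05 to 13.23) and 1 of 6 oligodendrocyte lineage markers (11.21 to 11.40 against 11.12 to 11.40) were higher in KO tissue, and 2 of 6 striatal markers lower (10.31 to 10.48 against 10.47 to 10.81). In occipital tissue 1 of 7 astrocyte (12.84 to 13.05 in KO against 12.21 to 12.60) and 1 of 6 oligodendrocyte lineage markers were higher and 1 of 6 striatal and 1 of 5 projection neuron markers lower. In KO frontal against occipital tissue 2 of 7 astrocyte markers (11.83 to 12.71 against 12.84 to 13.05) and 1 of 4 hippocampal markers (10.10 to 10.58 against 10.66 to 11.66) were lower and 2 of 5 projection neuron markers higher. Averaged over the regions, 6 of 7 astrocyte and 4 of 7 radial glia markers were higher in KO tissue. So were 3 of 6 microglia, 2 of 6 oligodendrocyte lineage, 1 of 6 interneuron and 1 of 4 thalamic markers. Of 6 striatal markers 2 were higher and 2 lower, and of 5 projection neuron markers 1 was higher and 1 lower. Among blood vessel markers 1 of 7 was lower. In WT frontal against occipital tissue 3 of 7 radial glia markers were lower (12.44 to 13.11 against 13.14 to 13.24) and 2 of 6 striatal markers higher (10.56 to 10.87 against 10.26 to 10.50), and the summed choroid plexus signal was 8.59 to 8.82 in frontal and 8.70 to 12.47 in occipital arrays. There 2 of 5 projection neuron markers were also higher, and 1 of 7 astrocyte, 1 of 6 microglia and 1 of 4 choroid plexus markers lower. The summed signal of 5 markers of cortical projection neurons was 12.70 to 12.81 in WT frontal, 12.41 to 12.60 in KO frontal and 12.32 to 12.46 in WT occipital arrays. The median difference of these 5 was -0.01 in KO against WT frontal tissue and 0.09 in WT frontal against occipital tissue, so the sums did not reflect all of them alike. The part of these cell types in the differences of the members was not tested.

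Of 23 other genes of these pathways, among them Unc5 and Robo receptors, Dcc, a contactin, neurexins, Shank proteins and G proteins, 21 were measured at P0.5. In KO against WT frontal tissue 2 rose and 2 fell: Cntn6, a contactin (1.18 ± 0.17, adjusted p = 6.47e-05), and Unc5c (0.53 ± 0.16, adjusted p = 0.0455) were higher, and Robo1 (-0.43 ± 0.11, adjusted p = 0.0114) and Unc5b (-0.35 ± 0.11, adjusted p = 0.0499) lower. Over the regions 4 rose, among them Cntn6 (0.38 ± 0.09) and Dcc, the netrin receptor (0.30 ± 0.06), and Unc5b fell by 0.22. None of the 21 was called in parietal or occipital tissue. Taking Y-linked level as a covariate, the frontal call held for Cntn6 (1.00, adjusted p = 0.0284) and was lost for Robo1 (-0.51, adjusted p = 0.0913), Unc5c (0.54, adjusted p = 0.386) and Unc5b (-0.16, adjusted p = 0.779). Over the regions it held for Dcc (0.35, adjusted p = 0.0362) and was lost for Cntn6 (0.28, adjusted p = 0.33), Nrxn3, Unc5a and Unc5b (adjusted p of 0.375, 0.23 and 0.536). The frontal calls of Unc5b and Unc5c were each lost with 5 of the 8 arrays left out in turn, WT frontal sample 4 (adjusted p = 0.24 and 0.166) among them. Over regions, the call of Cntn6 was lost without KO number 2 (adjusted p = 0.065) or 4 (0.0739) or WT number 4 (0.0685). That of Unc5b over regions was lost with 6 of the 8 numbers of a genotype left out in turn (0.0536 to 0.114). The median difference of the list was 0.07 in frontal tissue, beside -0.03 for all genes and 0.10 for the members.

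The regional comparisons of these partners were as follows. In WT tissue Cntn6 (-1.10 ± 0.17, adjusted p = 0.000291) and Unc5a (-0.43 ± 0.08, adjusted p = 0.00141) were lower in frontal than in occipital tissue, and Robo1 was higher (0.43 ± 0.11, adjusted p = 0.0152). In KO tissue Unc5a (-0.52 ± 0.08, adjusted p = 0.000222) and Unc5d, a receptor for Flrt2 (-0.57 ± 0.10, adjusted p = 0.00114), were lower in frontal tissue, and Robo2 (0.56 ± 0.12, adjusted p = 0.00766) and Unc5c (0.61 ± 0.16, adjusted p = 0.0345) higher. Between frontal and parietal tissue Cntn6 was lower in WT frontal tissue (-0.89 ± 0.17, adjusted p = 0.0203), and Robo2 was higher in KO parietal than in KO occipital tissue (0.55 ± 0.12, adjusted p = 0.0471). Cntn6 was the 1 partner called in the interaction of frontal against occipital tissue (1.66 ± 0.25, adjusted p = 0.00119), as Tenm3 was among the members (0.98). With Y-linked level as a covariate, the interaction was 1.53 (adjusted p = 0.0156), and the KO frontal to occipital calls of Unc5c (0.61, adjusted p = 0.202) and Robo2 (0.59, adjusted p = 0.0614) and the KO parietal to occipital call of Robo2 (adjusted p = 0.0731) were lost. Without single arrays the WT frontal to occipital call of Robo1 was lost (without WT occipital sample 2, adjusted p = 0.0623), the KO frontal to occipital call of Unc5c with 7 of 8 arrays left out in turn (adjusted p of 0.0639 to 0.119), the WT frontal to parietal call of Cntn6 with 4 of 8 (0.0523 to 0.143) and the KO parietal to occipital call of Robo2 with 7 of 8 (0.0656 to 0.209).

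The genes most like 3 members over the 24 P0.5 arrays were found by Pearson's r, as a description with no test, since the arrays share groups and regions. Tenm3 was followed most closely by Met (r = 0.95), a growth factor receptor, Egfem1 (0.937) and Rps6ka5 (0.891). Flrt3 was followed by Epha6 (r = 0.945), an ephrin receptor, D630023F18Rik (0.923) and Mir218-1 (0.913). Tenm2 was followed by Cadm1 (r = 0.922), an adhesion molecule, Tshz2 (0.904) and Ryr3 (0.899).

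At E14.5 no gene was called between KO and WT neocortex (0 of 18194, or 0%, by limma, with 1048 at an unadjusted p under 0.05, and 0 with the replicate number as a block, which pairs these arrays). Of the 10 members 9 had a difference below 0, and Tenm3 was above 0. Of the 9, Tenm1 and Adgrl3 were dim, with mean log2 signals of 4.62 and 4.92 (percentiles 26.2 and 32.1 of genes). Tenm2, Flrt1 and Flrt3 each had 1 other probe set with a difference above 0 (0.16, 0.06 and 0.06). The members' median was -0.28, beside 0.06 for all genes. Flrt2 was at 8.08, 7.20 and 7.09 in WT and at 5.72, 6.37 and 6.45 in KO samples, which did not overlap, and it differed by -1.27 ± 0.32 (adjusted p = 0.85). It was lower in KO samples with each of the 6 arrays left out (-1.46 to -0.96). Its other 2 probe sets gave -0.71 and -0.27 and overlapped between the groups.

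Tenm4 was at 10.11, 9.84 and 9.91 in WT and at 9.27, 9.71 and 9.75 in KO neocortex, without overlap, and differed by -0.38 ± 0.18 (adjusted p = 0.88). All 3 of its probe sets gave differences below 0 (-0.57 to -0.38). Tenm3 was at 7.99, 7.99 and 8.21 in WT and at 7.95, 9.15 and 8.80 in KO samples, with a difference of 0.57 ± 0.31 (adjusted p = 0.894). KO sample 1 (7.95) lay just below the WT samples (lowest 7.99) and the other KO samples above them. That array correlated least with its own group (mean r of 0.957 over genes). It was also the lowest KO array of Flrt2 (5.72) and of Tenm4 (9.27). Of all 18194 genes 11.2% had KO and WT arrays that did not overlap, 3.74% with KO lower, beside 2 of the 10 members, both with KO lower. The remaining members overlapped between the groups, with Tenm2 at -0.64 ± 0.33 and Adgrl2 at -0.52 ± 0.38 as the next in size.

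**Figure D5:**
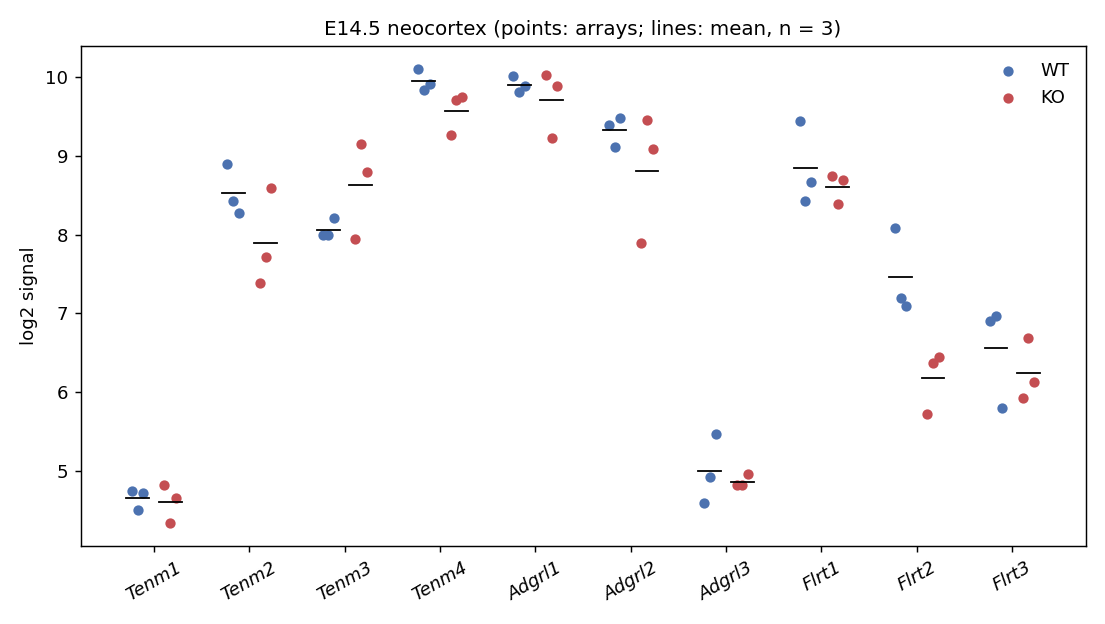
Log2 signal (vertical axis) of the 10 members in E14.5 neocortex, WT in blue and KO in red; points are arrays and lines are means (n = 3), and levels of different genes are not comparable because their probes differ. The KO arrays of Flrt2 (5.72 to 6.45) and Tenm4 (9.27 to 9.75) lie below all WT arrays, as do those of 3.74% of all genes, and the other 8 members overlap.

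The E14.5 KO arrays were less like one another (mean r with their own group of 0.957 to 0.973 over genes) than the WT arrays (0.989 to 0.991). Their summed signal of meningeal markers was higher (10.28 to 12.59 against 9.58 to 9.73 in WT), and that of 5 markers of cortical projection neurons (10.83 to 11.50 against 11.67 to 12.41) and of hippocampal markers (7.45 to 8.28 against 8.31 to 8.94) lower. The median difference of the 4 hippocampal markers was 0.08, so not all of them shared the direction of their sum. Thalamic (9.19 to 10.13 against 8.73 to 8.94), oligodendrocyte lineage (9.73 to 10.09 against 9.40 to 9.58) and microglia markers (9.40 to 9.99 against 9.04 to 9.36) also lay higher in all KO arrays. Their part in the members' differences was not tested. The log2 signal of Xist at E14.5 was 9.58, 10.17 and 5.07 in KO and 5.01, 10.76 and 5.41 in WT samples, so it was not balanced between the genotypes. The signals of both stages came from different array types and were not compared.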

How the data were processed

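Arrays of 30 samples were analysed. The authors deposited log2 signals per probe set, and the submitters' processing notes name Affymetrix Expression Console 1.1 and RMA, without roles. The genome build is not given in the sources used here. Per the labels' protocols every sample was run on the Gene 1.0 ST array, but the E14.5 probe set names belong to an older 3′ array, so the stages were fitted apart. Probe sets naming several genes (932 at E14.5, 1621 at P0.5) or none were left out, which gave 18194 and 19938 genes. Values were not normalised again, and no dim gene was removed. Array medians lay within 5.12 to 5.15 and 7.42 to 7.52 and precision is limited by how few arrays there are.

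The tests were those of limma 3.58.1 (R 4.3.3, lmFit, eBayes with trend, two-sided), at P0.5 in 1 fit of 24 arrays in 6 groups. For KO against WT over regions, arrays of 1 genotype and number were averaged across the 3 regions, giving 4 KO and 4 WT values. Every KO number mixed low and high Y-linked levels across regions (for number 1, 5.09 in frontal and 9.32 in occipital tissue). Arrays of 1 KO number thus did not all come from the same animals, and which arrays were averaged together is arbitrary. In the test over regions the Y-linked covariate, and leaving out the pair of arrays least like their groups, instead used a fit of single arrays with the regional contrasts averaged. The scripts were tested on simulated data. Members and lists were chosen with earlier results of these data known, among them those of Tenm3, so no count of members is independent support. Named are all members, Tbr1, up to 4 called partners a comparison by p, and the 3 genes most like each of the 3 members with the largest differences. Same-numbered arrays were checked for pairing by the correlation of their residuals. Every pair lay over 0.1 at E14.5 (0.125 to 0.445) and for WT parietal with occipital arrays (0.124 to 0.276), and in no other pair of groups (lowest -0.471).

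Alternatives averaged all probe sets of a gene, dropped the 30% dimmest genes, subtracted array medians, dropped the intensity trend, took replicate number as a block or Y-linked level as a covariate, fitted the compared arrays alone, or left out 1 array at a time. Chosen after seeing the data were the block in a fit of only the arrays compared, leaving out the pair of arrays least like their groups, values within arrays of like Y-linked level (split at a mean of 7.5) and each probe set by itself.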

Additional observations from a re-analysis of the deposited data

Results flagged for a closer look

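The log2 signal of Flrt3 in WT occipital sample 1 was 8.82, while the other 3 WT occipital samples lay from 9.09 to 9.10. The gap made up 0.953 of the group's range, above Dixon's 95% critical value for 4 samples. This was the 1 such value among 60 groups of 4 samples tested, and chance alone gives about 1 in 20. Without that sample the KO minus WT difference of Flrt3 in occipital tissue was 0.45 (limma adjusted p = 0.0501), against 0.52 (adjusted p = 0.0139) with it.

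The frontal to occipital difference of Tenm3 was not the same in both genotypes, by the interaction contrast of 0.98 (limma adjusted p = 0.00162): it was -1.55 in WT and -0.56 in KO tissue. All 4 KO frontal arrays had a low Y-linked level and all 4 WT frontal and WT occipital arrays a high one. A fit that takes this level as a covariate gave 0.91 (adjusted p = 0.023).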

How the results depend on the processing

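No member's call changed its direction under any alternative. Over the alternatives, 1166 of 1189 member results kept their side of the threshold, 7 lost a call and 16 gained one, and with samples left out in turn 1310 of 1340 kept it, 20 lost and 10 gained one. The causes of these changes were not tested. The count of members lower in KO tissue over regions went from 0 to 1 (Tenm1, with Adgrl3 gained as higher) in the fit of 24 arrays with the regional contrasts averaged. It did so too in that same fit without WT frontal sample 4 and KO parietal sample 2. For WT frontal against parietal tissue it went from 1 lower to 2 with probe sets averaged per gene (Tenm4). For KO frontal against occipital tissue the count higher went from 0 to 1 (Adgrl2) with the mean of probe sets, with array medians subtracted, and with the compared arrays fitted alone, with or without the replicate block. For KO frontal against parietal tissue the count lower went from 1 to 2 (Tenm3 added) with the replicate block, when the compared arrays were fitted alone and without the pair of arrays, and to 0 with block and fewer arrays together. In the fit of 24 arrays the replicate block changed, of the members' calls, that of Tenm3 just named and that of Tenm2 between WT parietal and occipital tissue (adjusted p = 0.0517). In fits of only the compared arrays it also ended the parietal KO against WT call of Tenm3 (0.44, adjusted p = 0.0526) and gave one to Tenm1 between WT frontal and occipital tissue (-0.38, adjusted p = 0.0483). Among the partners' calls the block ended those of Unc5b in KO against WT frontal tissue (adjusted p = 0.0549) and of Unc5a (0.0783), Unc5b (0.052) and Nrxn3 (0.0651) over regions.

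With samples left out in turn, counts of members ranged from 2 to 4 higher and 0 to 1 lower for KO against WT frontal tissue, from 2 to 3 higher in parietal, from 0 to 1 higher and 0 to 1 lower in occipital tissue, from 3 to 5 higher and 0 to 1 lower over regions, and from 0 to 1 lower for KO frontal against parietal tissue. The counts over all genes, behind the shares of genes called, moved more. Taking Y-linked level as a covariate, they went from 1499 to 247 for KO against WT frontal tissue. Over regions they went from 1488 to 824, there with a fit of 24 arrays in place of the averages. They went from 643 to 247 for KO frontal against occipital tissue and from 83 to 12 for the interaction of frontal against occipital tissue. With the compared arrays fitted alone they were 687 for frontal tissue, 287 (from 1202) for WT frontal against occipital tissue and 32 for that interaction. With the block added to that fit they were 481, 69 (from 34) for WT frontal against parietal, 213 (from 90) for WT parietal against occipital, 21 (from 47) for KO frontal against parietal, 23 (from 70) for KO parietal against occipital tissue and 22 for the interaction. Without the pair of arrays least like their groups they were 782 for WT frontal against occipital tissue and 46 for the interaction, and for KO frontal against parietal tissue 28 with array medians subtracted and 24 without the trend. With 1 array left out they ran from 749 to 2454 for frontal tissue, from 237 to 357 (from 361) for parietal, from 122 to 358 (from 267) for occipital tissue, from 963 to 1494 over regions, from 441 to 1917 for WT frontal against occipital, from 24 to 69 for WT frontal against parietal, from 46 to 104 for WT parietal against occipital, from 441 to 540 for KO frontal against occipital, from 7 to 60 for KO frontal against parietal and from 28 to 82 for KO parietal against occipital tissue, and from 29 to 187 for the interaction of frontal against occipital tissue and 0 to 6 for the other 2. At E14.5 they reached 30 without KO sample 3, with no member called.

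Arrays give no count depth. In the fits without the replicate block, the standard errors of the members' differences between 2 groups ran from 0.08 to 0.15 at P0.5 and from 0.14 to 0.38 at E14.5. In that E14.5 fit, which leaves out the pairing of the arrays, differences of the size seen at P0.5 were mostly not detectable. No gene was called at E14.5 with the block either.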
